A study of Homo sapiens with 9 samples.

Results

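The 77 genes described here encode proteins of the cytosolic ribosome. They were chosen by symbol alone, as every gene of the deposited table named RPL or RPS with a number and at most an A or X after it, together with RPLP0, RPLP1, RPLP2 and RPSA. They are 77 of 29740 gene symbols, 46 of the large subunit and 31 of the small subunit, and all 77 passed the expression filter among 14740 genes tested. The RNA came from HMEC-1 cells, which are immortalised human dermal microvascular endothelial cells. The groups were untreated controls (CTRL), cells treated with 50 µM trimethylamine-N-oxide (TMAO, a metabolite made from gut bacterial products) for 24H, and cells treated with the same dose for 48H, with 3 libraries each. The methods give serum-starved medium for the treated cells and do not state that of the controls, and the study pooled its controls over the time-points, so that time in culture and treatment cannot be told apart in a difference from CTRL. The study's methods speak of independent experiments in general, and the labels do not say whether the libraries came from separate cultures, so p-values measure only the spread between these libraries, which may be technical.

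Most ribosomal proteins are needed in equal numbers, and their mRNAs are among the most abundant of growing cells. Most of these mRNAs begin with a 5′ terminal oligopyrimidine (TOP) tract, a C followed directly by a run of pyrimidines. Through this tract the kinase mTOR and the RNA-binding protein LARP1 control their translation and stability together. A change in translation without a change in mRNA amount would not be seen in these libraries.

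The start of the annotated transcript is shown because the TOP tract is what most of the 77 genes share and the symbol rule did not use. RefSeq start sequences (GRCh38.p14) were matched by symbol for 62 of the 77 genes. A TOP start, defined as C at the first transcribed base followed by at least 4 further C or T on the transcribed strand, was found in 42 of 62 (67.74%), against 711 of 15841 (4.49%) symbols of the table that have a start sequence. Counting tracts that begin within 5 bases of the annotated start gave 50 of 62 (80.65%) against 21.79%. The windows below run 5′ to 3′ from 15 bases before the start to the 15th transcribed base, with the tract in capitals.
RPSA, chr3:39406705-39406734, plus strand: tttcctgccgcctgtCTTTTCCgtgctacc
RPS16, chr19:39435935-39435964, minus strand: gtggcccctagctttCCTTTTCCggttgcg
RPS6, chr9:19380222-19380251, minus strand: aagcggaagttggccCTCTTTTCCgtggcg
RPS14, chr5:150449725-150449754, minus strand: ccgccccctcccactCTCTCTTTCCggtgt
RPL22, chr1:6199581-6199610, minus strand: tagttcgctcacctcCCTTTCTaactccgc
RPL13A, chr19:49487593-49487622, plus strand: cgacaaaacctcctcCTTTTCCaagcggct
RPLP0, chr12:120201097-120201126, minus strand: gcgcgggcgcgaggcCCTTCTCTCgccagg
RPL41, chr12:56116618-56116647, plus strand: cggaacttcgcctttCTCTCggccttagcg
The next windows, of the same length, have no tract at the annotated first base.
RPL11, chr1:23691764-23691793, plus strand: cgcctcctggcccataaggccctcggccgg
RPS27A, chr2:55231888-55231917, plus strand: taaggagtgacacacaagacccagactctt
RPL10, chrX:154398050-154398079, plus strand: tttttccactctcagaaatatacgtctgtc
A C at the first base was found in 74.19% of the 62 genes and in 12.1% of all symbols with a start sequence. The letters CCGGAA, the core of the site bound by ETS factors, occurred on either strand in the 250 bases before the start of 28 of 62 genes (45.16%), against 18.46% of all. This window ends before the first transcribed base, where the tract of a TOP start begins. It can still hold runs of pyrimidines that begin before the annotated start. These are matches of letters and not measured sites.

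Library totals ranged from 25205756 to 36927373 estimated counts, and the lowest count of any of the 77 genes in any library was 2585, for RPS29. Ribosomal RNA took 31.5% of the counts in TMAO 24H replicate 1 and 1.64% to 7.46% in the other 8 libraries. All 11 markers of endothelial cells that were listed were detected in every library. Their summed levels were 2520 to 2840 CPM in CTRL, 2550 to 2700 at 24H and 2250 to 2440 at 48H. For the markers, CPM are counts scaled to the counts outside ribosomal RNA of the library. In the later paragraphs CPM are TMM-normalised counts scaled to a common library size. Of 7 fibroblast markers, DCN, LUM and PDGFRA were under 1 CPM, while the summed level, 1040 to 1200 CPM in CTRL and 1040 to 1120 at 24H, was 671 to 727 at 48H. The summed level of 5 epithelial markers (EPCAM, CDH1, KRT1, KRT5, KRT14) was 9.45 CPM in TMAO 48H replicate 3 and 60 to 109 CPM in the other 8 libraries. Smooth muscle markers summed to 5.81 to 6.84 CPM in CTRL, 6.1 to 7.46 at 24H and 8.73 to 10.4 at 48H, above both other groups. Leukocyte markers summed to 20.8 to 23.7, 23.2 to 24.7 and 24.2 to 25.5 CPM in the same order. Melanocyte markers summed to at most 2.28 CPM, and PTPRC, CD3E, LYZ, MYH11, DES, MLANA and TYR were under 1 CPM. At an edgeR adjusted p under 0.05, 6 of 11 endothelial and 2 of 5 tested fibroblast markers were lower at 48H than in CTRL. Of 3 tested smooth muscle markers 1 was higher, and 1 had a log2 fold change below 0. The share of all tested genes that passed in this comparison was 10.4%. The part of these shifts in the results that follow was not tested. In the later paragraphs, counts of genes with an adjusted p under 0.05 were also obtained without TMAO 24H replicate 1 and TMAO 48H replicate 3. The marker counts were not obtained in this way.

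The 77 genes together took about the same share of the library in all groups. In CTRL they made up 3.631%, 3.766% and 4.169% of the counts that did not fall on ribosomal RNA. At 24H the shares were 3.88%, 4.026% and 3.716%, and at 48H they were 4.283%, 3.778% and 3.756%. The highest library of each group lay above the lowest libraries of both other groups, so the 3 groups overlapped. Mean shares with their SD over 3 libraries were 3.86% ± 0.28 for CTRL, 3.87% ± 0.155 for 24H and 3.94% ± 0.298 for 48H. The difference from CTRL was 0.0188 percentage points at 24H (two-sided exact permutation test, p = 1) and 0.0837 at 48H (exact permutation p = 0.6), and 48H differed from 24H by 0.0649 (exact permutation p = 0.8). With 3 libraries against 3 this exact permutation test cannot go below p = 0.1. Counting error was far smaller than these differences between libraries, since the 95% Wilson interval of a share had a half-width of at most 0.0081 percentage points, which covers counting error only.

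**Figure D1:**
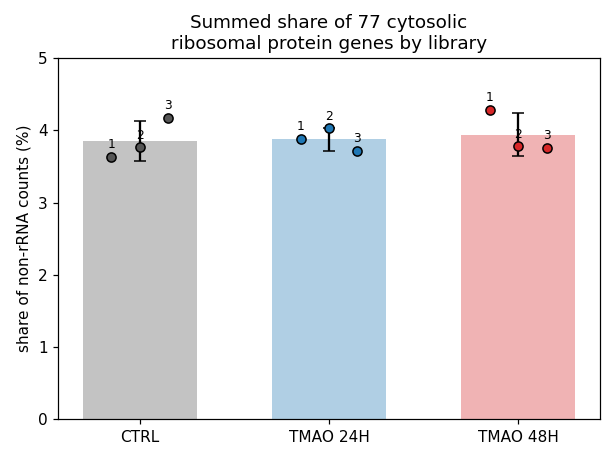
Share of non-rRNA counts (%) taken by the 77 ribosomal protein genes, with a bar for the mean of each group, an error bar for the SD (n = 3) and a numbered point for each library. The 3 means lie between 3.86% and 3.94%, and single libraries run from 3.631% to 4.283%.

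Levels can be compared between genes per length only, and CPM per kilobase of coding sequence were used. In CTRL the 77 genes spanned 437 to 5750 CPM per coding kilobase with a median of 851, and the 90th percentile was 2.18 times the 10th. RPL41, whose coding sequence of 75 bases is the shortest of the 77, stood highest at 5750 ± 738 (SD, n = 3). RPLP1, an acidic protein of the stalk that recruits elongation factors, followed at 1850 ± 126 (SD, n = 3) and did not differ beyond the spread from RPL13A at 1810 ± 112 (SD, n = 3), a protein of the large subunit. RPS18 at 1560 ± 123 (SD, n = 3) and RPL39 at 1490 ± 281 (SD, n = 3) came next and overlapped each other. Among the lowest levels were those of RPS13 at 495 ± 19.1 (SD, n = 3) and RPL34 at 437 ± 57.2 (SD, n = 3), the lowest of all, which differed by about the SD of RPL34. The order depends on the length used, since only 1 of the 5 highest genes was also among the 5 highest per transcript length, and the value of RPL41 in particular divides by a very short coding sequence.

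**Figure D2:**
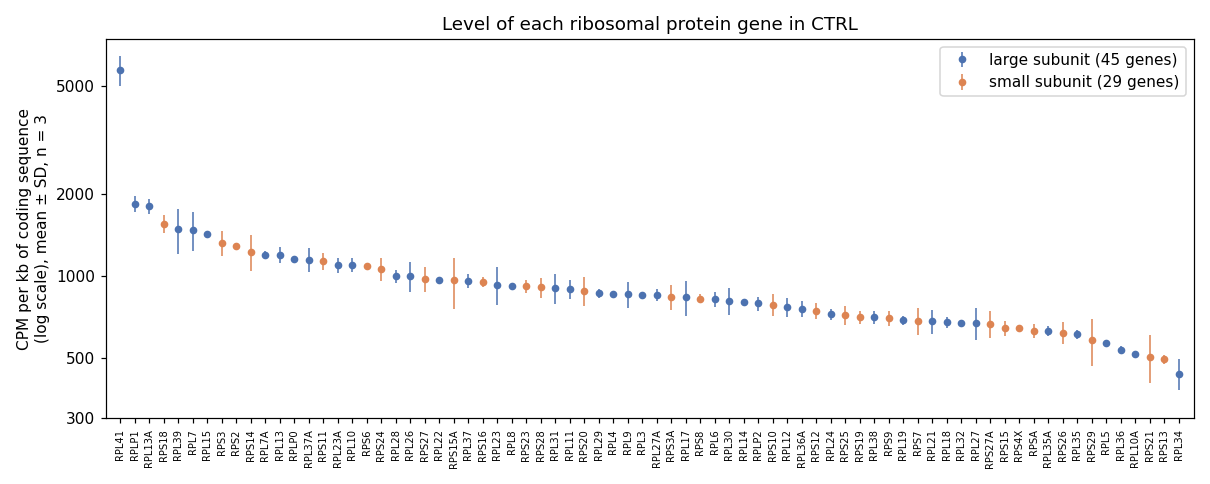
CPM per kilobase of coding sequence in CTRL (log scale, mean ± SD, n = 3) for 74 of the 77 genes in falling order, coloured by subunit. RPL41 stands at 5750, and the other genes run from 1850 for RPLP1 down to 437 for RPL34.

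Within a group, the genes moved together from library to library. In TMAO 48H replicate 1, 77 of 77 genes lay above the mean of their own group, by 0.122 on average on the log2 CPM scale. In CTRL replicate 3, 72 of 77 lay above their mean (0.112 on average), while in CTRL replicate 1, 75 of 77 lay below it (-0.0872). TMAO 24H replicate 2 had 67 genes above its group mean, and TMAO 24H replicate 3, TMAO 48H replicate 2 and TMAO 48H replicate 3 had 72, 68 and 73 below theirs. TMAO 24H replicate 1, the library with 31.5% ribosomal RNA, had an average deviation of 0.00933.
The 25 genes with a coding sequence under 400 bases deviated more than the 52 longer ones in 8 of 9 libraries when their average deviations are compared, for example 0.152 against 0.0923 in CTRL replicate 3. The exception was TMAO 48H replicate 2, with -0.0557 for the short genes and -0.0582 for the longer ones. The SD within groups was 0.116 (log2) in the median short gene and 0.0815 in the median longer one, beside 0.0923 over all tested genes, and across the 77 genes it had a correlation of -0.474 with log2 coding length (Spearman -0.465). These genes come from the same 9 libraries and are not independent. The steadiest gene was RPL15 with a within-group SD of 0.0174, and the most variable were RPL39 with 0.219 and RPS15A with 0.239.

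**Figure D3:**
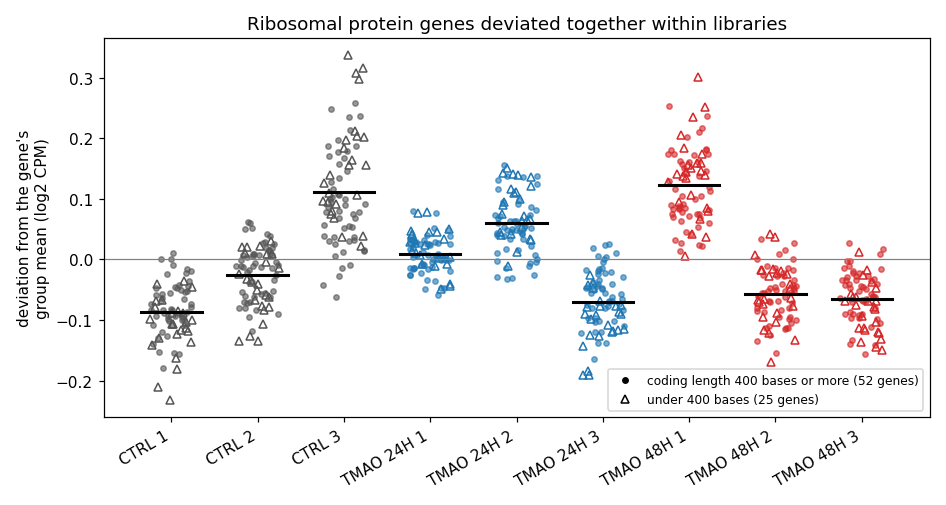
Deviation of each of the 77 genes from the mean of its group (log2 CPM, y axis) in the 9 libraries (x axis), with open triangles for the 25 genes with a coding sequence under 400 bases, filled points for the other 52, and a bar for the mean over the genes. All points of TMAO 48H replicate 1 lie above 0 and nearly all of CTRL replicate 1 lie below.

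After 24H of TMAO, no ribosomal protein gene differed from CTRL beyond the spread between libraries. With edgeR's quasi-likelihood test, 0 of 77 passed an adjusted p of 0.05, where 0.095% of all tested genes did, and 0 had an unadjusted p under 0.05, where 7.24% of all tested genes did (with DESeq2, 0 passed and 1 had an unadjusted p under 0.05). At the study's fold threshold of 1.4, 0 of 77 passed beside 0.0475% of all genes. The smallest log2 fold change was -0.0909 for RPS16, a small subunit protein near the decoding site, with a median of 0.000929 over the 77 genes and of -0.000421 over all tested genes, and 39 were above 0 and 38 below. The next smallest were RPLP2 (-0.0734), RPL24 (-0.0687), RPS15 (-0.0542) and RPL13A (-0.054), and among the largest were RPL11 (0.0794), RPL9 (0.071), RPL4 (0.0656) and RPL17 (0.0624). RPS16 had 400, 436 and 420 CPM in CTRL and 386, 405 and 388 at 24H, so the 405 of the second treated library lay within the control range (adjusted p = 0.709). Only RPL4, which lines the exit tunnel, had libraries that did not overlap between the groups, higher at 24H (adjusted p = 0.854), where 14.2% of all tested genes did not overlap. RPL17 lies within the readthrough gene RPL17-C18orf32 in the annotation, so reads could be shared between the pair.
The precision was enough to bound the size of change gene by gene. The 95% interval of the fold change lay inside a 1.4-fold change in either direction for 77 of 77 genes, against 76.4% of all tested genes, and the median standard error of the log2 fold change was 0.0629 for the 77 genes and 0.0727 for all.

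After 48H, RPS2 fell and no other gene of the 77 passed the test. RPS2 is a small subunit protein at the entry of the mRNA channel. It had 1090, 1160 and 1140 CPM in CTRL, 1110, 1200 and 1160 at 24H, and 1040, 971 and 960 at 48H. The 3 libraries at 48H were lower than all 6 others. The log2 fold change was -0.19 with a standard error of 0.0537 (0.877-fold, 95% interval 0.809 to 0.95, edgeR adjusted p = 0.0405). This call was lost with the replicate number as a block (adjusted p = 0.0974), with only these groups in the fit (0.0857), with a length and GC trend removed (0.0844), and in 5 of the 6 fits without a single CTRL or TMAO 48H library, all but that without TMAO 48H replicate 1 (0.0539 to 0.14). It was also lost without TMAO 24H replicate 1 and TMAO 48H replicate 3 together (0.125), while DESeq2 gave an adjusted p of 0.000763 and the log2 fold change stayed between -0.228 and -0.132 throughout. Relative to the mean log2 level of all 77 genes in the same library, RPS2 stood at 1.53, 1.55 and 1.38 in CTRL, 1.45, 1.51 and 1.58 at 24H, and 1.23, 1.3 and 1.29 at 48H, again with no overlap, although a fit scaled in this way gave an adjusted p of 0.341.
The 1 of 77 genes that passed at 48H compares with 10.4% of all tested genes, and 0 passed at 1.4-fold beside 1.8% of all. The 95% interval of the fold change lay inside 1.4-fold for 77 of 77 genes, against 71.5% of all tested genes, and the bounds nearest to that limit were 0.809-fold for RPS2 and 1.27-fold. The median log2 fold change was 0.0191 over the 77 genes and 0.00396 over all tested genes, with 51 above 0 and 26 below. This median took the opposite sign without CTRL replicate 1 (-0.0235) or without TMAO 48H replicate 1 (-0.0472), and it was 0.0744 without CTRL replicate 3.
Next to RPS2 in size of decrease were RPSA and RPL14, and neither passed. RPSA, a small subunit protein also described at the cell surface as a laminin receptor, had 542, 538 and 596 CPM in CTRL and 563, 482 and 502 at 48H, a log2 fold change of -0.114 (adjusted p = 0.249). The highest treated library lay between the control libraries. Processed pseudogenes of RPSA, chiefly RPSAP58, held counts equal to 26.1% of those of RPSA, so the assignment of its reads is uncertain, and adding them gave -0.0656 (adjusted p = 0.533). RPL14, of the large subunit, had 509, 535 and 507 CPM in CTRL and 504, 489 and 465 at 48H, without overlap of the groups, and a log2 fold change of -0.0895 (adjusted p = 0.224).
The largest values in the other direction were those of RPL23A, RPL35A, RPL37, RPL34 and RPL22. RPL23A, at the outlet of the exit tunnel where it offers a docking site for the signal recognition particle, had 478, 516 and 546 CPM in CTRL and 595, 561 and 540 at 48H (log2 fold change 0.138, standard error 0.0573, unadjusted p = 0.0308 from edgeR, adjusted p = 0.145). The lowest treated library lay just under the highest control. RPL22, which also binds small viral RNAs, had 362, 370 and 381 CPM in CTRL and 424, 395 and 381 at 48H, a log2 fold change of 0.108 (adjusted p = 0.164). RPL35A, RPL37 and RPL34 had log2 fold changes of 0.112, 0.11 and 0.11 with adjusted p of 0.334, 0.259 and 0.556. RPL23A and RPL22 overlap other counted genes in the annotation (TLCD1 and RNF207), as do 32 of the 77 genes. Libraries of CTRL and 48H did not overlap for 4 of 77 genes, RPS2 and RPL14 lower and RPL15 and RPS4X higher, where 27.8% of all tested genes did not overlap.

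**Figure D4:**
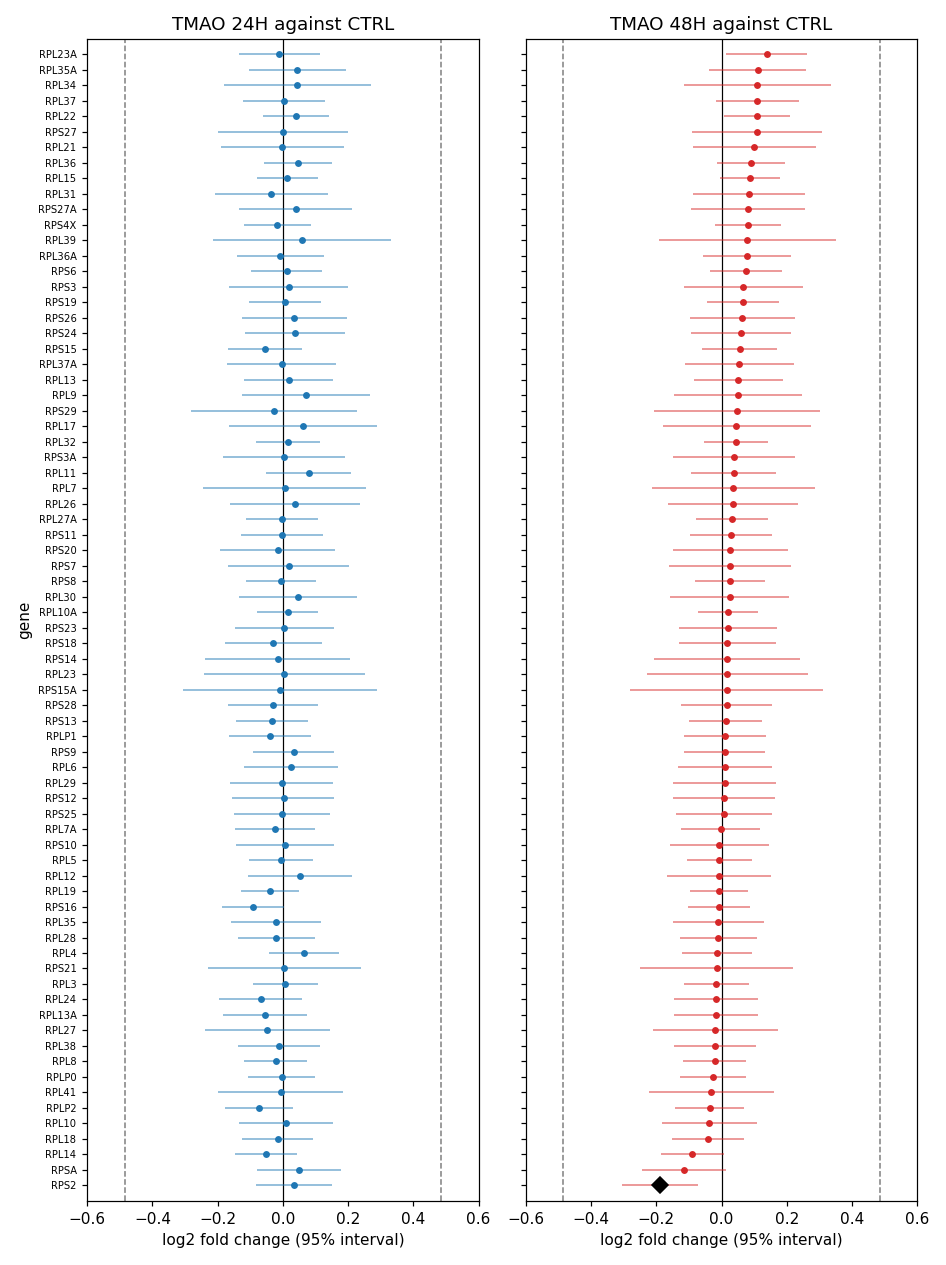
Log2 fold change (x axis) with its 95% interval for 74 of the 77 genes (y axis, ordered by the value at 48H), at 24H on the left and 48H on the right, both against the same CTRL libraries; dashed lines mark 1.4-fold and the diamond an adjusted p under 0.05. All intervals lie between the dashed lines, and RPS2 at 48H (-0.19) is the only diamond.

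RPS2 was also the gene that passed when the time-points were set against each other. It was lower at 48H than at 24H (log2 fold change -0.223, standard error 0.0537, edgeR adjusted p = 0.0227), as 1 of 77 genes, where 7.53% of all tested genes passed. None of the 77 reached 1.4-fold beside 1.71% of all. The call was lost with the replicate block (adjusted p = 0.0718) and without each of 4 single libraries, TMAO 24H replicates 2 and 3 and TMAO 48H replicates 2 and 3 (up to 0.11), and without TMAO 24H replicate 1 and TMAO 48H replicate 3 together (0.0932). RPSA was next with a log2 fold change of -0.163 (adjusted p = 0.125); DESeq2 gave an adjusted p of 0.0398. Its 571, 593 and 568 CPM at 24H lay above all 3 libraries at 48H. RPL4 (-0.0797), RPL12 (-0.0589) and RPL10 (-0.0469), an intersubunit protein added late in assembly, followed. In the other direction, RPL23A had 506, 536 and 487 CPM at 24H, below all 3 libraries at 48H, and a log2 fold change of 0.149 (adjusted p = 0.141), followed by RPL31 (0.121), RPS15 (0.109), RPS27 (0.107) and RPL37 (0.106). Libraries did not overlap for 5 of 77 genes, RPS2 and RPSA lower and RPL15, RPL23A and RPS16 higher at 48H, beside 27.6% of all tested genes. The median over the 77 genes was 0.0272 with 53 above 0 and 24 below, and it was -0.0386 without TMAO 48H replicate 1 and -0.0131 without TMAO 24H replicate 3.

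**Figure D5:**
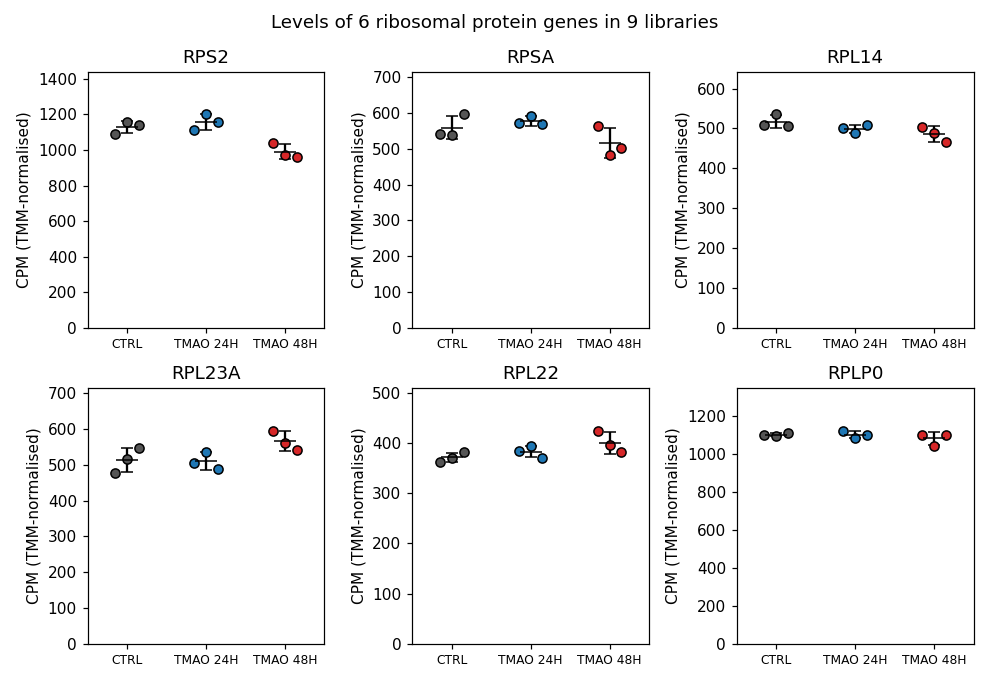
TMM-normalised CPM (y axis, from 0) of RPS2, RPSA, RPL14, RPL23A, RPL22 and RPLP0 in the 3 libraries of CTRL, TMAO 24H and TMAO 48H (x axis), with points for libraries and a bar with whiskers for the mean ± SD (n = 3). RPS2 lies at 960 to 1040 at 48H and at 1090 or above in the other libraries, and RPLP0 stays between 1040 and 1120 throughout.

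By place in the ribosome, 0 of 3 stalk proteins, 0 of 2 proteins of the 5S particle and 0 of 8 exit tunnel proteins passed at either time-point or between them, and RPS2 was the 1 of 7 mRNA channel proteins that passed at 48H. These lists are short, and the share of all tested genes that passed was 0.095% at 24H, 10.4% at 48H and 7.53% between them. RPLP0, the stalk base often used as a reference gene, had 1100 ± 10.8 CPM in CTRL, 1100 ± 22.3 at 24H and 1080 ± 33.3 at 48H (SD, n = 3). RPLP1 had 632 ± 43.2, 615 ± 15.9 and 636 ± 38.8 CPM, and RPLP2 274 ± 16, 260 ± 8.2 and 267 ± 10.5 (SD, n = 3). Log2 fold changes of the stalk genes lay between -0.0734 and -0.00408 at 24H and between -0.037 and 0.00982 at 48H.
RPL5 and RPL11 bind 5S rRNA and, when free of the ribosome, the p53 ligase MDM2. RPL5 had 504 ± 5.62, 502 ± 5.32 and 502 ± 28.8 CPM in CTRL, at 24H and at 48H, and RPL11 had 477 ± 38.3, 504 ± 23.3 and 489 ± 25.6 (SD, n = 3). RPS6, the small subunit substrate of S6 kinase, had 816 ± 22.5, 822 ± 28 and 859 ± 43 CPM in the same order (SD, n = 3, adjusted p = 0.386 at 48H). RPS27A, made as a fusion with ubiquitin, had 313 ± 35.5, 321 ± 18.6 and 331 ± 33 CPM (SD, n = 3). The X-linked RPS4X had 508 ± 14.5, 502 ± 18.1 and 537 ± 24.6 CPM (SD, n = 3), and for RPL36A, also X-linked, the values were 242 ± 17.1, 240 ± 5.28 and 255 ± 22.7 (SD, n = 3). None of these genes passed the test in any of the comparisons.
The subunits were close to each other. At 48H the median log2 fold change was 0.0134 for the 46 large subunit genes and 0.0256 for the 31 small subunit genes, and at 24H it was -0.00236 and 0.0019. For the 42 genes with a TOP start the median was -0.00338 at 24H and 0.0111 at 48H. For the 20 other genes with a start sequence it was 0.0156 and 0.0402. Some of these 20 have a tract that begins within 5 bases of the annotated start, so they are not a group without tracts. Short genes had a median of 0.0471 at 48H and longer ones 0.0171. Across the 77 genes the log2 fold change at 48H had a correlation of -0.425 with GC content and of -0.282 with log2 coding length, and at 24H of -0.369 and 0.0821. Both time-points share the CTRL libraries, and the genes share all libraries, so these are descriptions.

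Genes that serve the ribosome were also read from fixed lists, by edgeR's adjusted p. Of 50 ribosome assembly genes, 0 passed at 24H, and 6 fell at 48H while 0 rose, a share of the list to be read beside 10.4% of all tested genes. BOP1, a factor of large subunit maturation, went from 62.8 ± 4.29 CPM in CTRL to 51.1 ± 3.68 at 48H (SD, n = 3, log2 fold change -0.299, adjusted p = 0.00984). MYBBP1A, a nucleolar protein, went from 99.6 ± 4.63 to 82.5 ± 4.36 CPM (SD, n = 3, log2 fold change -0.273, adjusted p = 0.00649), and the other 4 were DDX56, EIF6, GRWD1 and NOP2. The count was 3 with the replicate block, 1 with a length and GC trend removed, 0 when scaled to the ribosomal protein genes, and 4 without both libraries that stand apart; with single libraries left out it was 1 to 5, being 3 without CTRL replicate 1, 2 without CTRL replicate 2 and 1 without TMAO 48H replicate 2. Between 48H and 24H, 2 of 50 were lower, NOC2L and EIF6, where 7.53% of all tested genes passed; this count was 0 without TMAO 24H replicate 1 or replicate 3, 1 without TMAO 24H replicate 2 or TMAO 48H replicate 2, and 5 with DESeq2.
The counts of the next 3 lists are to be read beside the shares of all tested genes that passed. These were 0.095% at 24H, 10.4% at 48H and 7.53% between the time-points. Of 14 RNA polymerase I genes, only TAF1C fell at 48H with a log2 fold change of -0.258 (adjusted p = 0.011). In this list 0 passed without TMAO 48H replicate 2 and 2 without CTRL replicate 3. Of 20 other TOP mRNAs, mostly translation factors, 0 passed at 24H and PABPC4 fell at 48H with a log2 fold change of -0.173 (adjusted p = 0.00799). PABPC4 was also lower at 48H than at 24H (adjusted p = 0.026), where 0 of 20 passed in any of the 6 fits without a single library. EEF1A1, the elongation factor that delivers aminoacyl-tRNA, had log2 fold changes of 0.0612 at 24H and 0.0278 at 48H. Of 9 TOP genes that host snoRNAs, SNHG1 fell at 48H with a log2 fold change of -0.226 (adjusted p = 0.0249), and 0 of 9 passed without CTRL replicate 3 or without TMAO 48H replicate 2, and 2 without CTRL replicate 1. Between 48H and 24H SNHG1 was lower and SNHG6 higher, with only 1 of 9 passing in 5 of 6 fits without a single library.
Of 14 regulators of TOP mRNAs, 1 fell at 24H, and 1 rose and 1 fell at 48H, beside 0.095% and 10.4% of all tested genes that passed. MYC, a transcription factor for which ribosome genes are known targets, had 67.9, 75.5 and 69.4 CPM in CTRL, 59, 53.9 and 56.4 at 24H and 82, 79.2 and 88.6 at 48H. Its 3 groups did not overlap, beside 14.2% (24H against CTRL), 27.8% (48H against CTRL) and 27.6% (48H against 24H) of all tested genes. The log2 fold change was -0.33 at 24H (adjusted p = 0.0493), a call lost in all 6 fits without a single library and with RLE factors, the older quasi-likelihood fit, the replicate block or scaling to the ribosomal protein genes. For 48H the value was 0.231, with an adjusted p of 0.0192. Between 48H and 24H it was 0.562 (adjusted p = 3.9e-05). EIF4EBP1, a translational repressor that mTOR inactivates, fell at 48H with a log2 fold change of -0.211 (adjusted p = 0.0423). The count of passing regulators at 48H was between 0 and 2 under the other settings and, with single libraries left out, 0 without CTRL replicate 3, 3 without TMAO 48H replicate 1 and 1 without each of the other 4. It was 0 without both libraries that stand apart.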

How the data were processed

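Total RNA of 9 HMEC-1 libraries was sequenced by the authors with paired-end reads and run through the nf-core RNAseq pipeline (version 3.6), and the submitters' processing notes name Trim Galore. The authors deposited estimated counts per gene symbol (expected counts, not normalised). The quantifier, genome build and annotation are not given in the sources used here, so read assignment between genes and their pseudogenes could not be checked. Totals ranged from 25205756 to 36927373 counts.

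Estimated counts were rounded and fitted in R 4.3.3 with edgeR 4.0.16 (filterByExpr, TMM, quasi-likelihood test with legacy = FALSE) over all 9 libraries without a block, with Benjamini-Hochberg adjustment over 14740 tested genes and thresholds of 0.05 and 1.4-fold as in the study's methods. The biological coefficient of variation was 0.0744. Intervals are 95% and use standard errors derived from the F statistic. Summed shares (7 ribosomal RNA symbols left out of the denominator) were compared by a two-sided exact permutation test over libraries. Alternatives were DESeq2 1.42.0, other factors, filters and fits, and leaving out each library. A fit scaled to the ribosomal protein genes and one without both libraries that stand apart were added after seeing the data. Coding lengths came from GENCODE release 29. They replaced the planned transcript lengths, because transcripts of several kilobases are annotated for some of these genes. No pairing of libraries by replicate number was seen over all genes (correlations of deviations from -0.155 to 0.0283 over 9 same-numbered pairs).

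Genes were named by rule: in each comparison the 5 largest and 5 smallest log2 fold changes, the highest 5 and lowest 3 levels per length, genes by place in the ribosome, a few with known further roles, and of each other list up to 2 passing genes at either end. Other genes were named after their values were seen (RPL15, RPS15A, RPS29, DDX56, EIF6, GRWD1, NOP2 and EEF1A1, among others). The genes and lists were chosen with earlier results of these data known. A few genes of the rule and lists are counted but not reported by name here. Pseudogene rows, Y-linked relatives and protein sequences were not used as members.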

Additional observations from a re-analysis of the deposited data

Results flagged for a closer look

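RPS2 had a log2 fold change of -0.223 between 48H and 24H (edgeR adjusted p = 0.0227). In this fit its difference from the shared CTRL libraries was thus different at the 2 time-points. The 3 libraries at 48H lay below all 3 at 24H. The call was lost with the replicate block (edgeR adjusted p = 0.0718) and in 4 of 6 fits without a single library (up to 0.11). It was also lost without both libraries that stand apart (0.0932). Ribosomal RNA, which is outside the comparisons of ribosomal protein genes, took 31.5% of the counts of TMAO 24H replicate 1, against 1.64% to 7.46% in the other 8 libraries, CTRL included. In both cases a cause was not tested.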

How the results depend on the processing

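At 24H, 0 of 77 ribosomal protein genes passed under each of the 13 other settings and the 6 fits without a single library. At 48H against CTRL the count of 1 became 0 with the replicate block, with a length and GC trend removed, with only the 2 groups compared, when scaled to the ribosomal protein genes, and without both libraries that stand apart. It ran from 0 to 2 with single libraries left out, where RPSA joined RPS2 without TMAO 48H replicate 1. Between 48H and 24H the count of 1 became 2 with DESeq2 (RPS2 and RPSA, both lower), 4 with the length and GC trend removed (RPL23A, RPLP2 and RPS15 higher, RPS2 lower), and 0 with the replicate block, when scaled to the ribosomal protein genes, and without both libraries; it ran from 0 to 2 with single libraries left out. The cause was not tested. Shares of all tested genes that passed under these other settings are not given here, also for the lists above. The 10.4% at 48H and 7.53% between the time-points belong to the main fit. A changed count is therefore not a result about these genes. As a share of all counts, ribosomal RNA included, the summed share differed by -0.341 percentage points at 24H against CTRL (exact permutation p = 0.6) and by 0.43 between 48H and 24H (exact permutation p = 0.4), since the larger denominator of TMAO 24H replicate 1 is then counted. No ribosomal protein gene passed at 1.4-fold under any setting. The median log2 fold change of the 77 genes lay between -0.00632 and 0.00384 at 24H, 0.0134 and 0.0587 at 48H and 0.0189 and 0.0721 between them, apart from fits without a single library, where 3, 2 and 2 of 6 medians were below 0. No pairing by replicate number was seen over all genes, where same-numbered pairs had correlations of -0.155 to 0.0283 and the 18 other pairs -0.112 to 0.182. The labels do not say whether libraries were paired, and these correlations cannot settle it. With the block, log2 fold changes of RPS2 at 48H were -0.189 against CTRL and -0.222 against 24H. Pairing cannot alter a mean share difference between groups of 3, so the unchanged 0.0837 at 48H says nothing about robustness. An exact permutation test with labels exchanged only within replicate numbers gave p = 0.75, and its floor is above that of the unpaired test. Without pairing, a test of 3 libraries against 3 on single values cannot go below 0.1. The counts of these genes, at least 2585 in a library, do not limit the precision.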

Other observations

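Relatives of the ribosomal proteins outside the symbol rule did not pass either. Of 10 listed in the table, 8 were tested and 0 had an adjusted p under 0.05 in any comparison (edgeR); at an unadjusted p under 0.05, 0 passed at 24H and 1, RPL7L1, at 48H, where 7.24% and 25.8% of all tested genes did. FAU, whose product carries the small subunit protein eS30, had 164 ± 18 CPM in CTRL, 163 ± 8.77 at 24H and 155 ± 14.4 at 48H (SD, n = 3). RPS27L had the largest log2 fold change of the 8 at 48H, 0.189 (edgeR adjusted p = 0.367). Its levels were 51.1 ± 8.73, 50.2 ± 6.21 and 58.3 ± 9.08 CPM in the same order (SD, n = 3).

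Proteins of the mitochondrial ribosome, which is built from a separate set of nuclear genes, gave 0 of 76 at an adjusted p under 0.05 in each of the comparisons. At an unadjusted p under 0.05, 1 was higher and 3 were lower at 24H, and 2 were higher and 3 lower at 48H, so that both counts were below these shares of all tested genes. Their median log2 fold change at 48H was -0.0428, with 31 above 0 and 45 below, where the cytosolic set had 0.0191 with 51 above and 26 below; this difference was not tested.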
